A study of Mus musculus with 2 samples.

Results

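Transcripts of autophagy receptors and of Atg8 proteins were followed in mouse embryonic stem cells that differed in the gene Tcl1, whose protein binds the kinase Akt. The group held 10 genes, Calcoco2, Calcoco1, Tax1bp1, Sqstm1, Nbr1, Optn, Map1lc3a, Map1lc3b, Gabarap and Gabarapl2, chosen by symbol with earlier values of these arrays in view, above all the low value of Calcoco2. Probes were found for 9 of the 10, with 19 probes in all, among 19087 genes with a symbol on the array. No probe was listed for Optn, so it has no ratio here. Because the members were chosen with this contrast known, their values are a description and carry no test.

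Each of 2 Agilent arrays compared a Tcl1 stable transformant with a Tcl1 gene disruptant, labelled in different dyes. On array 1 transformant clone 1 was in Cy5 and disruptant clone 4 in Cy3. On array 2 transformant clone 4 was in Cy3, and in Cy5 was disruptant clone 6, stably transfected with CAG-EGFP. Both copies of Tcl1 were disrupted with a PGK-puro cassette in all these cells, the transformants included, since the Tcl1 vector with its CAG promoter had been put into disruptant clone 4. The transformants thus share an origin, and that of disruptant clone 6 is not stated. Every cell population is 1 clone, kept in LIF on gelatin, with no feeder cells. Ratios are given on the log2 scale as transformant over disruptant, array 1 before array 2, and a mean carries the SD over the 2 arrays, so that a value of −1 is a level 2-fold lower in the transformant.

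Selective autophagy delivers chosen cargo, such as protein aggregates, damaged mitochondria or bacteria, to the lysosome. Receptors bind ubiquitin or another mark on the cargo and, through a short motif, the Atg8 proteins of the LC3 and GABARAP branches, which are coupled to lipid on the growing autophagosome membrane. The receptors are themselves degraded with their cargo, so transcript levels and protein levels need not run together.

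In the transformants Calcoco2 lay far below the disruptants on both arrays, while the other 8 measured genes had means between −0.46 and 0.22. Calcoco2 and Gabarapl2 were below 0 on both arrays (2 of 9), as were 19.4% of all genes with a symbol, though Gabarapl2 through 1 of its 3 probes. Calcoco1 and Gabarap were above 0 on both (2 of 9), as were 22.1% of all genes. Without that probe of Gabarapl2 the counts were 1 below and 3 above. Opposite signs were seen for 5 of the 9 genes. Tax1bp1, Nbr1 and Map1lc3b were above 0 on array 1 and below 0 on array 2, a pattern of 28.2% of all genes, and Map1lc3a and Sqstm1 ran the other way, like 27.2% of all genes. The median over the 9 genes was 0.020 on array 1 and −0.12 on array 2, beside 0.0053 and 0 over all genes with a symbol. Apart from Calcoco2, these genes did not stand away from 0 in a shared direction.

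**Figure D1:**
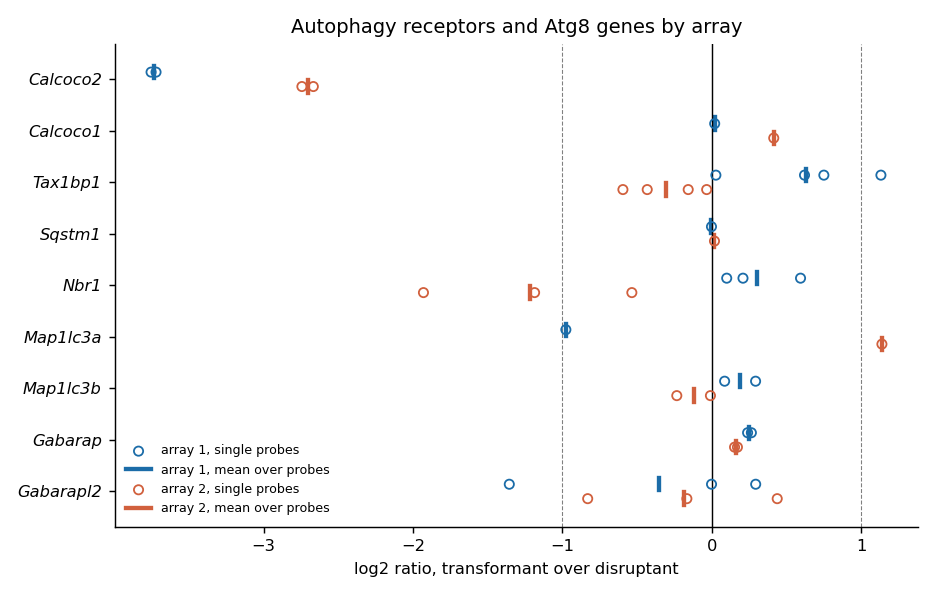
Log2 ratio of transformant over disruptant (horizontal axis) for each measured gene, with open circles for single probes and bars for the mean over probes on array 1 and array 2. The dashed lines mark a 2-fold difference, which Calcoco2 passes on both arrays, with values of −3.74 and −2.71.

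Limma fitted to all 30110 entries of the table (genes and unnamed probes) called 0 of them at an adjusted p under 0.05, which is 0.0%, with a smallest adjusted p of 1. At an unadjusted p under 0.05 it gave 947 of the 30110 entries, a smaller share than the 0.05 set by that limit where no entry differs. With array 2 not turned to transformant over disruptant, limma gave 2770 entries at the same limit. The robust form of limma also called 0. No autophagy gene named here therefore passed a test, and a design of 2 arrays leaves 1 residual degree of freedom. Tcl1 itself had −0.37 and 0.17 with its 1 probe, so a higher level in the transformants was not seen on both arrays. The place of this probe was not examined, either against the disrupted exons or against the Tcl1 sequence of the vector. The values therefore check no label. The direction, Cy5 over Cy3, and the log10 scale of the deposited values are inferred from the convention of the scanner software. Read the other way, all signs would turn together, and read as log2, all values would be smaller by a factor of 3.32, with a mean of −0.97 for Calcoco2. Over all genes with a symbol the arrays ran weakly against each other, with a Pearson correlation of −0.14 across genes, which are not independent replicates. In bulk RNA, fewer cells of a type and less RNA per cell cannot be told apart.

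Upstream sequence was read from RefSeq (build GRCm38.p6) for the 250 bases before the annotated start, and 8 of the 10 genes had a window there, 10 windows in all, Optn included. Calcoco2 and Map1lc3a had none. Shown are Calcoco1 (chr15:102722179-102722428, minus strand) and Gabarap (chr11:69991120-69991369, plus strand), the 2 genes above 0 on both arrays, and Sqstm1 (chr11:50210821-50211070, minus strand), the gene nearest to 0. Capitals mark the GC box, GGGCGG on either strand, a site of Sp1 family factors.
Calcoco1: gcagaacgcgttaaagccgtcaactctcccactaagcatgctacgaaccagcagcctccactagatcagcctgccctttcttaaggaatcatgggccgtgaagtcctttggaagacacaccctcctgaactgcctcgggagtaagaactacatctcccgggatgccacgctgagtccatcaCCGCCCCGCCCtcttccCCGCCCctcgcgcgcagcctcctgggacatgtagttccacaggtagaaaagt
Gabarap: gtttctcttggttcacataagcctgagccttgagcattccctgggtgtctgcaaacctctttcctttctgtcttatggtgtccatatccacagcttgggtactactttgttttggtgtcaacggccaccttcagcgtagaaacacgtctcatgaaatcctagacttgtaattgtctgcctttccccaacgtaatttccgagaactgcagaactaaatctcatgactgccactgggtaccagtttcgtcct
Sqstm1: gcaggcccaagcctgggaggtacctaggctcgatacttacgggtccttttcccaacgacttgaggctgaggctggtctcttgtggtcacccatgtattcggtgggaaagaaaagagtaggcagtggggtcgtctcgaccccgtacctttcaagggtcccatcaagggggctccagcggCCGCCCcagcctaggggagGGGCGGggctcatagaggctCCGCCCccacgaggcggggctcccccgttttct
The windows of Calcoco1 and Sqstm1 hold 3 GC boxes each, with 1 pair overlapping in Calcoco1, and that of Gabarap holds 0. Of the 10 windows 5 hold a GC box, beside 32.7% of 32851 windows of that length. The E-box CACGTG, the core that TFEB and its relatives bind at lysosomal and autophagy genes, is in 0 of the 10, beside 6.02% of all windows. The forkhead motif GTAAACA, which FoxO factors under Akt's control can bind, is in 0 of the 10, beside 3.17%. Both motifs were searched on both strands. CpG dinucleotides numbered 14 in the windows of Calcoco1 and Sqstm1 and 6 in that of Gabarap, with a median of 6 over all windows. The genes above 0 on both arrays thus differ in these features, and a match or its lack is a description of the window alone.

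Among the receptors, Calcoco2 encodes NDP52, which in human cells recognises ubiquitin-coated bacteria and damaged mitochondria. Its 2 probes, both designed to the same transcript, gave −3.75 and −3.72 on array 1 and −2.67 and −2.74 on array 2. Averaged over probes these are −3.74 and −2.71, or 13.3-fold and 6.52-fold lower in the transformants, with a mean of −3.22 ± 0.73 (SD, n = 2). Cy3 was brighter on array 1 and Cy5 on array 2, so the disruptant was the brighter channel in both dye orientations. Of the 19087 genes with a symbol, Calcoco2 ranked 5 from the lowest on array 1 and 17 on array 2, and 3 by the mean. A difference of at least 2-fold downwards on both arrays was seen for 0.262% of genes with a symbol, and of the 9 measured genes for Calcoco2 alone. On array 1 by itself such a difference was seen for 2.09% of genes, and again for Calcoco2 alone among the 9. Upwards, 0 of the 9 passed 2-fold on both arrays (0.0157% of genes) or on array 1 (1.38% of genes). The probe means of Calcoco2 lay 0.022 apart, against a median distance of 0.26 over 8266 genes with several probes, so the value does not rest on 1 spot.

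**Figure D2:**
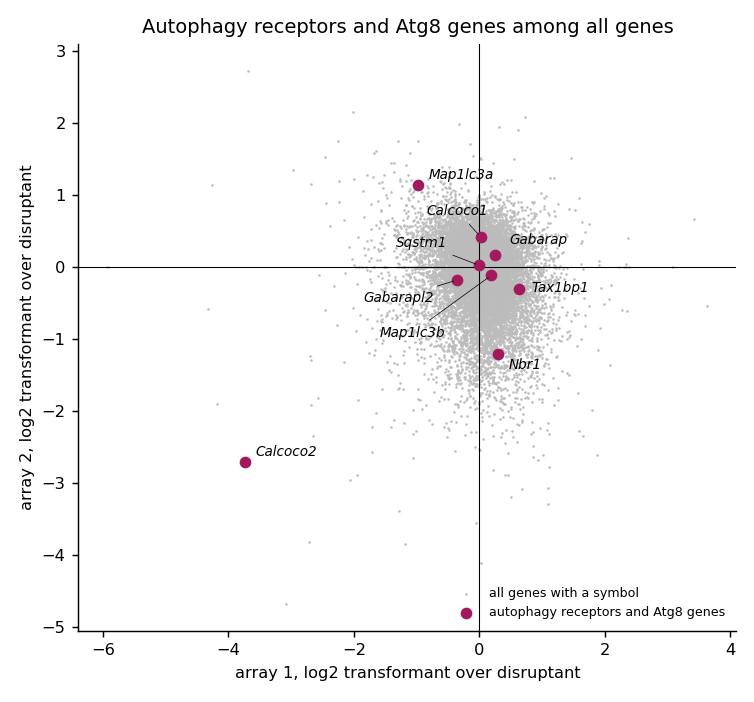
Log2 ratio of transformant over disruptant on array 1 (horizontal) and array 2 (vertical) for all 19087 genes with a symbol in grey and the 9 measured autophagy genes in colour. Calcoco2 lies at the lower left edge of the cloud, and Map1lc3a and Nbr1 lie off 0 in opposite directions on the 2 arrays.

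The genes beside Calcoco2 on chromosome 11 did not share its value. Of the 10 genes on each side in RefSeq order, 9 had a probe, and their values ran from −0.56 to 0.31 on array 1 and from −0.66 to 0.41 on array 2, with a median of the means of −0.0022. Ttll6, a tubulin glutamylase gene and the next on the right, had 0.048 and 0.0029. Atp5g1, a subunit gene of the mitochondrial ATP synthase and the nearest measured gene on the left, had −0.33 and 0.15. Beyond it Ube2z, a ubiquitin-conjugating enzyme gene, had −0.22 and 0.16, Snf8, of the ESCRT-II complex that sorts cargo in endosomes, had −0.019 and 0.025, and the incretin gene Gip had 0.31 and 0.40. Igf2bp1, which encodes an mRNA-binding protein, had 0.049 and −0.66, and B4galnt2 had 0.072 and 0.41. On the right Hoxb13 had −0.56 and 0.12 and Hoxb9 0.046 and −0.050. None of these 9 genes reached a 2-fold difference on either array.

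**Figure D3:**
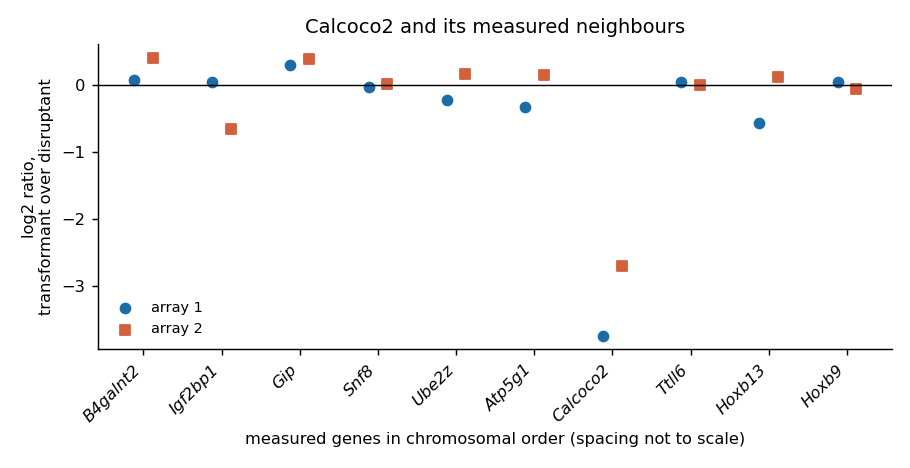
Log2 ratio of transformant over disruptant (vertical axis) for Calcoco2 and its 9 measured neighbours in chromosomal order, with circles for array 1 and squares for array 2. The neighbours lie between −0.66 and 0.41, and Calcoco2 at −3.74 and −2.71.

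By the distance between the value pairs of the 2 arrays, the genes most like Calcoco2 were Eif2s3y (distance 0.92), Dppa3 (1.14), Apobec2 (1.31), Oas1b (1.46) and Fmr1nb (1.51). None of them is a gene of autophagy in the lists used here. The likeness rests on 2 arrays and on large negative values, and Eif2s3y, a Y-linked translation factor gene, had −4.19 and −1.90.

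Calcoco1 and Tax1bp1 are the relatives of Calcoco2 in the CALCOCO family. Calcoco1, a receptor for the endoplasmic reticulum and the Golgi in human cells, had 1 probe, with 0.020 and 0.42 and a mean of 0.22 ± 0.28. Its value on array 1 was close to 0. Tax1bp1, a ubiquitin-binding receptor that clears protein aggregates, had 4 probes. They gave 1.13, 0.028, 0.75 and 0.62 on array 1 and −0.59, −0.43, −0.034 and −0.16 on array 2. Every Tax1bp1 probe was above 0 on array 1 and below 0 on array 2, with gene values of 0.63 and −0.30 and a mean of 0.16 ± 0.66. The low value of Calcoco2 was not seen for either relative.

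Sqstm1 encodes p62, which gathers ubiquitinated proteins into condensates and is a target of the factor Nrf2. Its 1 probe gave −0.0017 and 0.018, with a mean of 0.0084 ± 0.014, the closest to 0 of the group. Nbr1, a receptor related to p62 that acts in aggregate and peroxisome turnover, had 3 probes. Array 1 gave 0.59, 0.10 and 0.21 and array 2 gave −1.93, −0.53 and −1.19 for these probes. The gene values of 0.30 and −1.22 have a mean of −0.46 ± 1.07, and on array 2 Nbr1 was 2.32-fold lower in the transformant. At least a 2-fold difference downwards on array 2 was seen for 5.45% of all genes with a symbol, and for Calcoco2 and Nbr1 among the 9. In Nbr1, as in Tax1bp1, Cy5 was the brighter dye on both arrays for every probe. For genes of opposite sign, dye and clone cannot be told apart with 1 array in each orientation.

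The 4 Atg8 genes had means from −0.27 to 0.21. Map1lc3a and Map1lc3b encode LC3A and LC3B, the LC3 branch. Map1lc3a had 1 probe, with −0.98 and 1.14 and a mean of 0.081 ± 1.496. It was 2.20-fold higher in the transformant on array 2, the 1 gene of the 9 past 2-fold upwards there, as were 0.566% of all genes. It had the widest distance between arrays of the 9 genes, with Cy3 brighter on both. Map1lc3b, whose protein is the usual marker of autophagosomes, had 2 probes, with 0.29 and 0.086 on array 1 and −0.0087 and −0.23 on array 2. Its gene values of 0.19 and −0.12 average 0.034 ± 0.22, so neither LC3 gene kept a sign.

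Gabarap and Gabarapl2 (GATE-16) form the other branch, which acts in autophagosome closure and fusion. The 2 probes of Gabarap gave 0.27 and 0.24 on array 1 and 0.17 and 0.15 on array 2, and the gene mean was 0.21 ± 0.064. The value is small, 1.15-fold higher in the transformants, but it was alike on both arrays and both probes. The 3 probes of Gabarapl2 disagreed. The first gave 0.29 and −0.17, the second, designed to another transcript, −0.0013 and 0.44, and the third −1.36 and −0.83. The gene mean of −0.27 ± 0.12 therefore depends on the third probe, and without it, a choice made after seeing the data, the mean was 0.14 with 0.15 and 0.14 on the arrays. The probe means of Gabarapl2 lay 1.31 apart, at percentile 98.6 of genes with several probes. Gabarapl1, the remaining Atg8 gene measured, which was not in the group, had 0.58 and 0.083, also above 0 on both arrays. Atg8 genes are similar in sequence, and without the sequences of the probes it is uncertain how much of a signal came from each.

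In the order of means Calcoco2 was followed by Nbr1, Gabarapl2, Sqstm1, Map1lc3b, Map1lc3a, Tax1bp1, Gabarap and Calcoco1. The values of neighbours in this order overlapped over the 2 arrays for every pair from Sqstm1 upwards, and for Nbr1 with Gabarapl2. They did not overlap for Calcoco2 and Nbr1, which lay 2.76 apart, nor for Gabarapl2 and Sqstm1, which lay 0.28 apart and whose gap rests on the third Gabarapl2 probe. Receptors had a median of 0.020 and −0.30 and Atg8 genes of −0.082 and 0.021 on the 2 arrays.

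The wider autophagy pathway was read from 11 lists of 106 genes, of which 100 had a probe. Below 0 on both arrays were 18 of the 100 and above 0 on both 19, beside 19.4% and 22.1% over all genes. The same shares of all genes stand beside the counts of each single list that follows. Above 0 on array 1 and below 0 on array 2 were 42, beside the 28.2% of all genes. No gene of the lists (0 of 100) was past 2-fold on both arrays, beside 0.262% of all genes downwards and 0.0157% upwards. On 1 array 6 of the 100 were past it. Downwards these were 2 on array 1 and 3 on array 2, beside 2.09% and 5.45% of all genes. Upwards they were 1 on array 1 and 0 on array 2, beside 1.38% and 0.566%. The medians over the 100 genes were 0.091 and −0.093. No member of these lists passed limma over all entries (0).

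Autophagy begins with the ULK1 kinase complex, and Ulk1, its kinase, had −1.08 and −0.44, a mean of −0.76 ± 0.45 with agreeing probes. Of the 5 genes of the complex 1 was below 0 and 1 above 0 on both arrays. The gene above 0 was Rb1cc1, a scaffold, with 0.34 and 0.0097, whose 6 probes had means from −0.13 to 0.48. In the Vps34 lipid kinase complexes Atg14, which directs the kinase to the forming autophagosome, had −0.28 and −0.15, and was the 1 gene of 7 with the same sign on both arrays. Among the Atg9 and WIPI proteins 3 of 10 were below and 2 above 0 on both. Wdr45, a WIPI protein that binds the kinase's lipid product, had −0.85 and −0.66, and Atg9b, which carries membrane, 0.24 and 0.38.

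Of the 11 enzymes that couple Atg8 and Atg12 proteins, 3 were below 0 on both arrays and 1 above. Atg5, which is joined to Atg12, had −0.074 and −1.34, and Atg16l2 had 0.23 and 0.34. The low value of Atg5 came from array 2. Of 15 further receptors, for organelles and ferritin, 3 were below 0 on both and 1 above. Ncoa4, the ferritin receptor, had −0.35 and −1.51, with probe means from −1.63 to −0.51, and Fundc1, a receptor on mitochondria, −0.14 and −1.36. These receptors, too, passed 2-fold on array 2 alone. Such a difference downwards on array 2 was seen for 2 of the 15 and for 3 of the 100 pathway genes, beside 5.45% of all genes.

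Genes of cargo recognition and of the kinases that act on receptors had 4 of 11 below 0 on both arrays and 1 above. Over all genes with a symbol the shares were 19.4% and 22.1%. Lgals3, a galectin that marks damaged membranes, had −1.42 and −0.36, and Pink1, the kinase that marks damaged mitochondria, −0.47 and −0.58. The list of Keap1, Nfe2l2 and Nrf2 targets had 5 of 9 above 0 on both, Keap1 among them, and 1 below. These counts stand beside 22.1% and 19.4% of all genes. The medians of the 9 were 0.42 and 0.070. The 1 below was Slc7a11, with −0.29 and −0.48 and probe means from −1.33 to 0.12. Nfe2l2, which encodes Nrf2, and the targets Gclc and Txnrd1 were above 0 on array 1 and below 0 on array 2. Keap1, which p62 binds and which restrains Nrf2, had 1.15 and 0.11, while the Nrf2 targets Gclm, of glutathione synthesis, and Hmox1, a heme-degrading enzyme gene, had 0.86 and 0.54, and 0.42 and 0.50. Sqstm1, itself a target, had a mean of 0.0084 ± 0.014 beside them.

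For the later steps, fusion genes had 1 of 9 below and 2 above 0 on both arrays, with 0.31 and 0.19 for the SNARE gene Vamp8 and 0.18 and 0.20 for Tecpr1. Lysosomal proteins had 1 of 16 below and 3 above. Neu1, a sialidase, had 0.58 and 0.38, with probe means from −0.37 to 0.93, and Atp6v0d1, of the proton pump, 0.15 and 0.19. Of 6 regulators of autophagy genes 0 were below and 2 above 0 on both. These were Tfe3, a relative of TFEB, with 0.022 and 0.49, and Foxo3, a factor that Akt holds out of the nucleus, with 0.29 and 0.061.

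**Figure D4:**
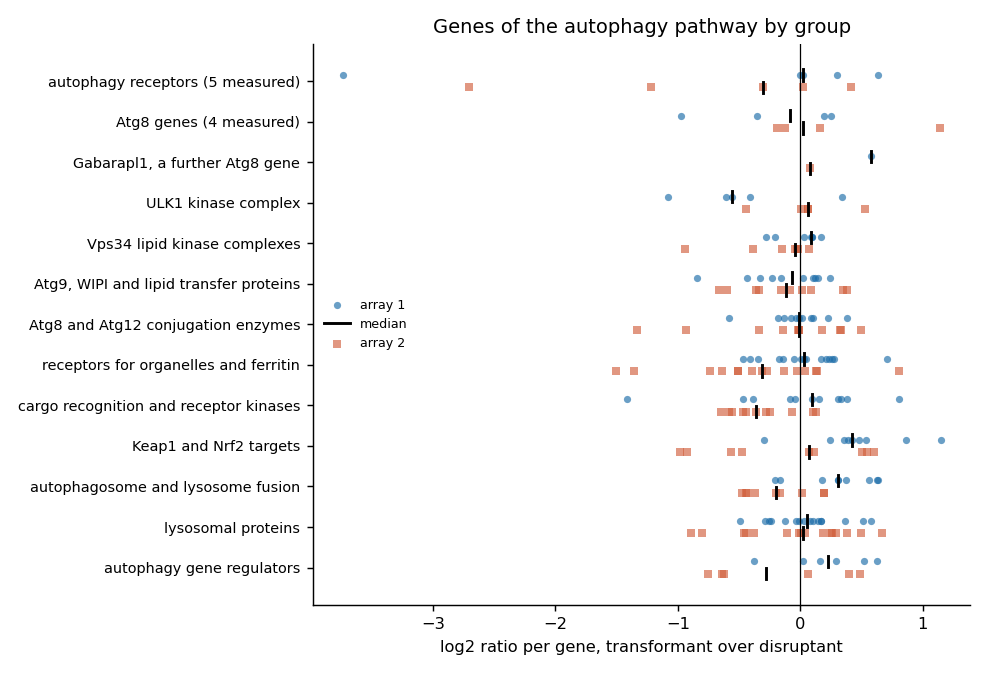
Log2 ratio of transformant over disruptant per gene (horizontal axis) for the measured autophagy receptors, the Atg8 genes and the 11 lists of pathway genes, with circles for array 1, squares for array 2 and black bars for medians. Calcoco2, at −3.74 and −2.71, lies below the lowest pathway values, which are −1.42 on array 1 and −1.51 on array 2.

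Ratios hold no levels, so the presence of stem cell markers could not be checked. By ratio 6 of 8 were below 0 on both arrays and 2 above, where 19.4% and 22.1% of all genes were, and the medians of the 8 were −0.63 and −0.62. Below 0 were Nanog (−0.95 and −1.04), Zfp42 (−1.54 and −1.70), Klf4 (−1.55 and −0.72), Sox2 (−0.58 and −0.51), Esrrb (−0.29 and −0.21) and Tdgf1 (−0.67 and −0.93). Pou5f1 (0.10 and 0.50) and Utf1 (0.10 and 0.46) were above 0. Markers of fibroblasts had 2 of 8 below and 2 above with medians of −0.056 and 0.035, those of primitive endoderm 2 of 8 below and 0 above with −0.17 and 0.21, and those of trophoblast 3 of 8 below and 1 above with −0.29 and −0.37. The part of these markers in the value of Calcoco2 was not tested.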

How the data were processed

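The authors' deposited values were 1 log10 ratio per spot for 2 dye-swapped arrays of 43790 spots, made with Agilent Feature Extraction, per the submitters' processing notes. How background and dyes were corrected, and with which version, was not given in the sources used here. Deposited values had a median of 0 on each array, how this was reached is unknown, and no intensity was used, so spots near background could not be told. Values were multiplied by 3.32 to give log2, and array 2 was turned to read transformant over disruptant. GEO's platform annotation, updated by gene number through RefSeq, named 32042 probes. Unnamed spots whose deposited log10 value was below −1 on both arrays, 725 in number, were left out as control-like. Probes of a gene were averaged, which gave 30110 entries. Limma 3.58.1 in R 4.3.3 (lmFit, eBayes) compared each mean with 0, with Benjamini-Hochberg adjustment and a threshold of 0.05. It was also run on simulated data, and that outcome is not reported here. Members and lists were chosen with earlier results of these data known. The genes named are all members, the 5 nearest to Calcoco2, its measured neighbours among 10 on each side, and of each pathway list the 2 with 1 sign and the largest smaller value and any gene past 2-fold on an array. Of the Keap1 and Nrf2 list the genes not above 0 on both arrays are named as well. Of the marker lists the stem cell markers are named in full. The precision is limited by the number of arrays. The p-values cover the spread between the 2 arrays alone, which differ in clone pair and in dye orientation together.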

Additional observations from a re-analysis of the deposited data

How the results depend on the processing

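With 1 array left out, the members below 0 numbered 4 to 5 and those above 0 also 4 to 5, against 2 and 2 on both arrays, and the pathway genes 39 to 60 below and 40 to 61 above, against 18 and 19, since a single array asks for 1 sign only. The mean of Calcoco2 was −3.74 without array 2 and −2.71 without array 1. Median probes, exact zeros left out and centring on probes with a symbol moved no count of members by over 1.5 times and turned the sign of no member (0 of 9), but the mean of Gabarapl2 was −0.084 with its median probe on each array, against −0.27. Scaling the arrays to the same spread turned Map1lc3a alone. With array 2 not turned, which goes against the dye labels and cancels a shared difference by construction, Calcoco2 had −0.52, and 4 of 9 members changed sign. Without the third probe of Gabarapl2, chosen after seeing the data, members below 0 on both arrays numbered 1 and those above 3, and Gabarapl2 averaged 0.14. A fold limit of 1.5 left Calcoco2 as the 1 member past it on both arrays. Limma called 0 entries under all 6 alternatives tried, and with 1 array there is no residual degree of freedom and no test. Each ratio is already paired within its array, and with 1 contrast no further replicate block could be fitted. Without intensities, signal over background could not be weighed.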
